A study of Mus musculus with 6 samples.

Results

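The 4 main classes of lung endothelial cells were compared for the changes they had in common after neonatal hyperoxia. The members were the cells of the 4 libraries of postnatal day 21 that the authors' deposited annotation named gCap (general capillary), aCap (aerocyte, or alveolar, capillary), Arterial or Venous. There were 14159 such cells, of 33061 day 21 cells with a class and 55882 in the whole series. By class they were 8512 gCap, 3828 aCap, 1500 Arterial and 319 Venous cells. By library they were 3112 cells of female room air, 2436 of male room air, 3824 of female hyperoxia and 4787 of male hyperoxia. Each library was labelled as a pool of lungs from 3 wild-type C57BL/6N mice of 1 sex, taken at postnatal day 21, dissociated and sorted for live cells. The hyperoxia pools had been kept in 95% oxygen from postnatal day 1 to day 5 and in room air after that, and the room air pools stayed in room air throughout. All values therefore describe lungs 16 days after the oxygen had ended. With 1 pool per sex and treatment, the female and the male pair of libraries were the replicates. The p-values and standard errors (SE) of changes within a class come from fits with 1 residual degree of freedom, in which a gene's variance draws on all genes. The tests between classes and between lineages used several sums of each of these same libraries. All p-values and SE cover these pools only and do not measure a gene's own spread between pools.

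The endothelium of the lung lines its arteries, its veins and the dense capillary bed around the alveoli. In that bed, gCap cells keep the capillaries renewed, and aCap cells are large, thin cells placed where gas is exchanged. Endothelial cells present antigen on MHC class I in all tissues, and lung capillary cells can also carry MHC class II. Both rise with interferon, which also induces guanylate-binding proteins and immunity-related GTPases, the proteins that attack vacuoles holding pathogens. High oxygen given to newborn rodents injures this capillary bed and leaves fewer, larger alveoli.

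The cells matched their labels by most of the markers. The summed level of 8 pan-endothelial markers was between 7716 and 16234 CPM (counts of UMIs of a gene scaled to the total of its class in its library). All 8 aCap markers and all 9 Venous markers were highest in their own class, as were 6 of 8 gCap markers (not Plvap and Lpl) and 7 of 9 Arterial markers (not Fbln5 and Htra1). Arterial cells also held the gCap markers, with sums of 7722 to 8448 CPM, against 10595 to 10973 CPM in gCap. Their own Arterial markers summed to 3062 to 3289 CPM. The sums held 585272 UMIs (Venous, male room air) to 22843114 UMIs (gCap, male hyperoxia), so that Venous values were the least precise. One library stood apart. In female hyperoxia 28.4% of aCap to 35.7% of Arterial cells held no Xist UMI, against 2.18% to 3.80% of the same classes in female room air, so that its cells did not all match the label female. Cells that Scrublet predicted to be doublets were 7.53% and 7.84% of aCap in female and male hyperoxia, against 1.86% and 0.733% in female and male room air. In Venous cells they were 3.61% and 4.46% in hyperoxia and 0% in both room air libraries, and in gCap and Arterial cells at most 0.837%. Between 1 and 4 cell barcodes of the 4 classes were shared by any pair of libraries.

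The change after hyperoxia was fitted within each class with sex as a covariate, and genes with an adjusted p below 0.05 in edgeR's quasi-likelihood test are referred to as called. In gCap 361 of 14241 genes were called (2.53%), 192 higher (1.35%) and 169 lower (1.19%). In aCap 92 of 12977 were called (0.709%), 63 higher (0.485%) and 29 lower (0.223%). The Arterial cells had 236 calls among 11117 genes (2.12%), 120 higher (1.08%) and 116 lower (1.04%). The Venous cells had 53 among 8556 (0.619%), 32 higher (0.374%) and 21 lower (0.245%). Of these calls 358, 92, 232 and 51 had the same direction in the female and in the male pair. The groups did not overlap for 347, 90, 224 and 51 of them, while over all genes tested 34.2%, 31.5%, 34.7% and 33.6% did not overlap. The fits had 1 residual degree of freedom, and the counts depend on the model. Without sex as a covariate edgeR called 18, 8, 24 and 8 genes, and DESeq2 with the same design called 82, 37, 11 and 2. Summed lymphatic markers in gCap were 602 and 526 CPM in female and male room air, and 732 and 746 CPM after hyperoxia. Of them Lyve1, Mmrn1 and Ccl21a were called higher in gCap, and none was called in the other classes. The part of lymphatic cells in the gCap calls was not tested.

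Sharing between classes was then counted as a call of 1 sign in several classes, with the same direction in both library pairs of each. Of 14480 genes tested in any class, 293 were higher (2.02%) and 239 lower (1.65%) in 1 or more. Of 12924 genes tested in at least 2 classes, 89 were higher (0.689%) and 77 lower (0.596%) in 2 or more. Of 11051 genes tested in at least 3 classes, 18 were higher (0.163%) and 12 lower (0.109%) in 3 or more. Of 8436 genes tested in all 4, 5 were higher in all (0.0593%) and none was lower in all (0%). Without predicted doublets 3 genes were lower in all 4, 37 in 3 or more and 134 in 2 or more, and without female room air 5 were lower in all 4. A single gene had calls of opposite sign, Mgp (matrix Gla protein, an inhibitor of calcification). It was higher in gCap (log2 difference 0.38, adjusted p = 0.0103) and lower in Arterial cells (-0.45, adjusted p = 0.00118). The 4 classes come from the same 4 libraries, so these counts describe the libraries and are not 4 independent results.

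**Figure D1:**
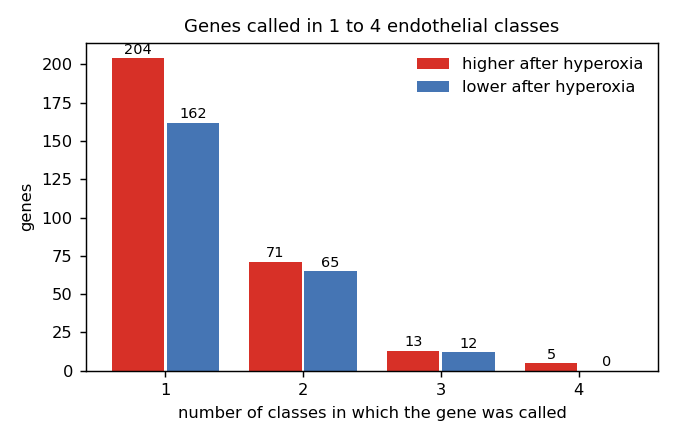
Number of genes (y axis) called after hyperoxia, with the same direction in both library pairs, in exactly 1, 2, 3 or 4 of the endothelial classes (x axis). Red bars are genes higher and blue bars genes lower after hyperoxia: 204 and 162 genes were called in 1 class, and 5 and 0 in all 4.

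Of the other classes, Arterial cells had the highest summed gCap markers, and the largest overlap lay between gCap and Arterial cells. They had 73 higher and 65 lower genes in common, which was 38.5% of the gCap calls and 59.5% of the Arterial calls. gCap and aCap shared 26 and 16 genes, or 45.7% of the aCap calls, and gCap and Venous shared 10 and 5, or 29.4% of the Venous calls. Calls in aCap and Arterial overlapped in 16 and 11 genes, in Arterial and Venous in 9 and 3, and in aCap and Venous in 6 and 1. The choice of these genes fixed their direction in at least 2 classes, and the classes came from the same 4 libraries. Of the 89 genes higher in 2 or more classes, 75 had a positive change in every class in which they were tested, and 58 of the 77 lower genes a negative one. For 49 and 43 of these the direction also held in both pairs of every tested class.

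The genes that rose in all 4 classes were Fkbp5, Hspb1, Cdkn1a, Rgcc and Timp3. Their known roles differ. Fkbp5 encodes a co-chaperone of steroid receptors that glucocorticoids induce, and Hspb1 a small heat shock protein that binds actin and unfolded proteins. Cdkn1a encodes p21, the cyclin-dependent kinase inhibitor and p53 target. Rgcc encodes a regulator of cell cycle kinases that restrains endothelial sprouting, and Timp3 a matrix-bound inhibitor of metalloproteinases.

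Fkbp5 (chr17:28399094-28517527, minus strand, GRCm38) had 40.4 and 41.3 CPM in female and male room air gCap cells, against 72.7 and 82.6 CPM in female and male hyperoxia. That was a log2 difference of 0.94 ± 0.088 (n = 4 libraries, adjusted p = 1.21e-07). The value after ± is the SE, taken from the fitted change and its F statistic, here and below. In aCap it had 6.77 and 3.67 CPM in room air and 13.7 and 18.0 CPM after hyperoxia (1.58 ± 0.25, adjusted p = 0.0226). Both hyperoxia pools lay above both room air pools in each class. Arterial cells had 42.2 and 57.5 CPM in room air and 88.3 and 98.9 CPM after hyperoxia (0.94 ± 0.13, adjusted p = 4.75e-10). The level was highest in Venous cells, at 217 and 116 CPM in room air and 339 and 377 CPM after hyperoxia (1.15 ± 0.21, adjusted p = 2.18e-05). Immune cells held 25.5 times the aCap level of this transcript and 4.53 times the gCap level, and what RNA from them adds to the endothelial counts was not tested.

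Cdkn1a (chr17:29090976-29100727, plus strand) stood at 310 and 316 CPM in room air gCap cells and at 601 and 710 CPM after hyperoxia, female before male here and in what follows. The log2 difference was 1.08 ± 0.081 (adjusted p = 6.58e-09). Arterial cells went from 410 and 444 to 765 and 923 CPM (0.99 ± 0.10, adjusted p = 5.9e-19), and Venous cells from 395 and 525 to 744 and 965 CPM (0.91 ± 0.20, adjusted p = 0.00177). The aCap cells already had the highest room air level, 910 and 945 CPM, and reached 1228 and 1278 CPM (0.44 ± 0.071, adjusted p = 0.0228). The groups did not overlap in any of the 4 classes. The size of the rise differed between the classes (class-by-hyperoxia interaction, adjusted p = 1.94e-04) and was smallest in aCap. That difference was also called without predicted doublets (adjusted p = 6.77e-05) and with each library left out in turn (largest adjusted p = 0.00466).

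Hspb1 rose from 39.3 and 34.5 to 79.8 and 68.8 CPM in gCap (1.03 ± 0.088, adjusted p = 2.41e-08) and from 111 and 91.5 to 229 and 177 CPM in Arterial cells (1.02 ± 0.11, adjusted p = 6.02e-16). The aCap cells had the highest level, 366 and 330 CPM in room air and 622 and 495 CPM after hyperoxia (0.68 ± 0.080, adjusted p = 0.00658). Venous cells had 65.9 and 97.4 against 259 and 137 CPM (1.28 ± 0.22, adjusted p = 8.71e-06), with the female hyperoxia pool well above the rest. Up to 28.3% of the Venous Hspb1 UMIs of a library came from 1 cell. The promoter of Hspb1 is shown because it holds 2 copies of the core to which heat shock factors bind. It covers the 250 bases before the start, with matches to GAANNTTC in capitals, which begin 117 and 97 bases before it (chr5:135887669-135887918, plus strand, RefSeq, GRCm38.p6).
Hspb1 promoter: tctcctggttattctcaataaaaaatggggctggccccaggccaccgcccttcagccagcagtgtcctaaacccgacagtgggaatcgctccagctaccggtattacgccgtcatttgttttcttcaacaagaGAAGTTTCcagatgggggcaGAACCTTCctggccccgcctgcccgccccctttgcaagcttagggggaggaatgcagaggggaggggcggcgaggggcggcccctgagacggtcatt

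Rgcc was lowest in aCap, at 15.7 and 16.5 CPM in room air, and rose there to 32.9 and 41.4 CPM (1.20 ± 0.11, adjusted p = 0.00179). In gCap, its main site among the 4 classes, it rose from 179 and 205 to 274 and 332 CPM (0.67 ± 0.075, adjusted p = 2.00e-06). Arterial cells went from 49.8 and 64.7 to 87.4 and 91.6 CPM (0.67 ± 0.13, adjusted p = 3.92e-05), and Venous cells from 52.0 and 75.2 to 138 and 120 CPM (1.06 ± 0.24, adjusted p = 0.00295). The groups were apart in all 4 classes. The class interaction of Rgcc was not called (adjusted p = 0.0780 with all cells and 0.723 without predicted doublets). The part of doublets in the size of its aCap rise was not tested. Epithelial cells held 34.0, 12.3 and 9.38 times the aCap, Arterial and Venous level.

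Timp3 rose from 213 and 168 to 340 and 351 CPM in gCap (0.89 ± 0.085, adjusted p = 1.62e-07) and from 571 and 506 to 1027 and 1006 CPM in Arterial cells (0.94 ± 0.10, adjusted p = 4.94e-17). In aCap it went from 979 and 798 to 1245 and 1304 CPM (0.53 ± 0.089, adjusted p = 0.0279). In Venous cells it went from 711 and 596 to 980 and 1202 CPM (0.75 ± 0.20, adjusted p = 0.0335). The change differed between the classes (interaction, adjusted p = 0.0178, but 0.0526 without predicted doublets and 0.139 and 0.191 with the female or the male room air pool left out). Timp3 (chr10:86300372-86349506, plus strand) lies within Syn3 (chr10:86055125-86498896, minus strand), which is among the genes called higher in 3 classes. Whether the counting used strand is not given in the sources used here, so reads of the 2 genes may not be fully separated.

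**Figure D2:**
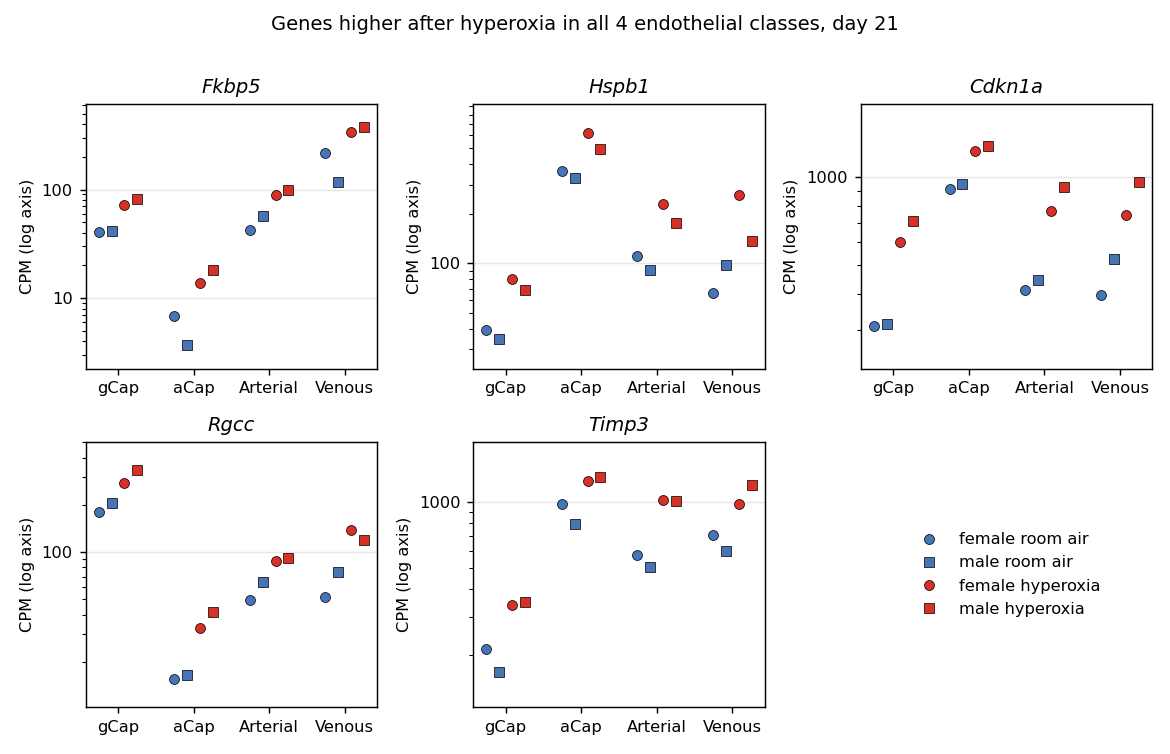
Level in CPM (y axis, log scale) of the 5 genes called higher in all 4 classes, for each library and class (x axis). Each point is 1 library. The hyperoxia pools lie above the room air pools of the same class throughout, and for Cdkn1a the gap is narrowest in aCap (910 and 945 against 1228 and 1278 CPM).

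Not all of these calls held under the alternatives. Without the female hyperoxia cells that lacked Xist, their Venous log2 differences were 0.79 to 1.28, against 0.75 to 1.28 with them, but none was called there (adjusted p = 0.186 to 0.347), and no gene was then called in all 4 classes. All 5 remained called in the other classes under that alternative, and in all 4 without predicted doublets. With 1 library left out, aCap calls were lost for Cdkn1a and Timp3 without either hyperoxia library (log2 differences 0.41 to 0.56) and for Hspb1 without female hyperoxia (0.51, adjusted p = 0.750). The gCap call of Rgcc was lost without male hyperoxia (0.53, adjusted p = 0.263). Its Arterial call was lost with any of the 4 left out (0.49 to 0.86, adjusted p = 0.0597 to 0.287). In Arterial cells Fkbp5 was lost without female room air (adjusted p = 0.0950) and Hspb1 without male room air (0.0912). In Venous cells all 5 lost their call without female hyperoxia (0.79 to 1.19, adjusted p = 0.0503 to 0.907). Without male hyperoxia 4 did (not Hspb1), without female room air Hspb1, Cdkn1a and Rgcc, and without male room air Fkbp5. None was called in Venous cells with DESeq2 (adjusted p = 0.182 for Cdkn1a and higher for the others) or without the sex term (0.107 to 0.164). Without the sex term the aCap calls of Fkbp5 (0.0866), Hspb1 (0.127), Cdkn1a and Timp3 (both 0.220) and the gCap and Arterial calls of Rgcc (0.106 and 0.0749) were lost as well. With DESeq2 the Arterial calls of Fkbp5 (0.0769) and Rgcc (0.703) were lost.

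A further 13 genes rose in 3 classes. Neat1, a long non-coding RNA that builds nuclear paraspeckles, rose in gCap (45.2 and 47.6 to 85.1 and 82.7 CPM, log2 difference 0.87 ± 0.086), in aCap (67.3 and 65.1 to 92.8 and 106 CPM) and in Arterial cells (62.7 and 80.9 to 137 and 128 CPM). Its epithelial level was 6.38 to 10.0 times that of these classes. Atp13a3, a polyamine transporter, rose in gCap (14.8 and 16.3 to 41.9 and 36.2 CPM), aCap (10.2 and 7.94 to 26.3 and 21.4 CPM) and Arterial cells (352 and 331 to 753 and 628 CPM), by 1.35 ± 0.11, 1.40 ± 0.13 and 1.03 ± 0.10 on the log2 scale. Epithelial cells held 7.47 and 12.4 times its gCap and aCap level. Tinagl1, a matricellular protein of basement membranes, rose in gCap (33.2 and 34.7 to 71.2 and 69.5 CPM). It also rose in aCap (5.57 and 6.75 to 11.4 and 13.8 CPM, with 11.8 times that level in epithelial cells) and in Arterial cells (96.4 and 126 to 150 and 199 CPM).

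Further genes of the 13 were called in gCap, aCap and Arterial cells. Plxna2, a receptor for class 6 semaphorins, rose in gCap, aCap and Arterial cells (0.83 ± 0.078, 0.52 ± 0.087 and 0.55 ± 0.11). Kalrn rose in the same classes (0.32 ± 0.076, 0.54 ± 0.076 and 0.81 ± 0.11). Its Venous difference was 0.01 ± 0.20, and the change differed between the classes (interaction, adjusted p = 0.00400), a call that was lost with the female (0.102) or the male (0.0673) room air pool left out. Ptprj, a receptor phosphatase of the endothelium, rose by 0.29 ± 0.077 in gCap and 0.57 ± 0.11 in Arterial cells. Its aCap call (0.54 ± 0.098, adjusted p = 0.0410) was lost without predicted doublets (0.16, adjusted p = 0.909), and immune cells held 13.7 times the aCap level.

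Sgms1, which makes sphingomyelin, rose by nearly the same amount in gCap, aCap and Arterial cells (0.51 ± 0.078, 0.52 ± 0.076 and 0.49 ± 0.10), and its Venous difference was 0.43 ± 0.20 (adjusted p = 0.602). Syn3, a synapsin, rose by 0.80 ± 0.13, 0.48 ± 0.090 and 0.70 ± 0.18 in gCap, aCap and Arterial cells. Tmem252, a transmembrane protein on the list of venous identity genes, rose in gCap (127 and 163 to 169 and 208 CPM), aCap (5.48 and 8.89 to 16.5 and 20.0 CPM) and Arterial cells (61.7 and 64.7 to 97.1 and 102 CPM). In Venous cells, where it was highest, it had 378 and 514 CPM in room air and 626 and 498 CPM after hyperoxia, and the groups overlapped. The class interaction of Tmem252 was not called (adjusted p = 0.0511 with all cells and 0.798 without predicted doublets). The part of doublets in its aCap rise was not tested. Apold1, an early response gene of endothelial cells, and Ttc39c were the members of the 13 called in gCap, Arterial and Venous cells and not in aCap. Apold1 stood at 5.66 and 4.02 against 9.78 and 6.22 CPM in gCap, 5.35 and 5.96 against 24.0 and 11.4 CPM in Arterial cells, and 6.34 and 6.83 against 31.4 and 20.9 CPM in Venous cells. Ttc39c rose by 0.43 ± 0.11, 1.01 ± 0.23 and 1.40 ± 0.35 in these classes.

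**Figure D3:**
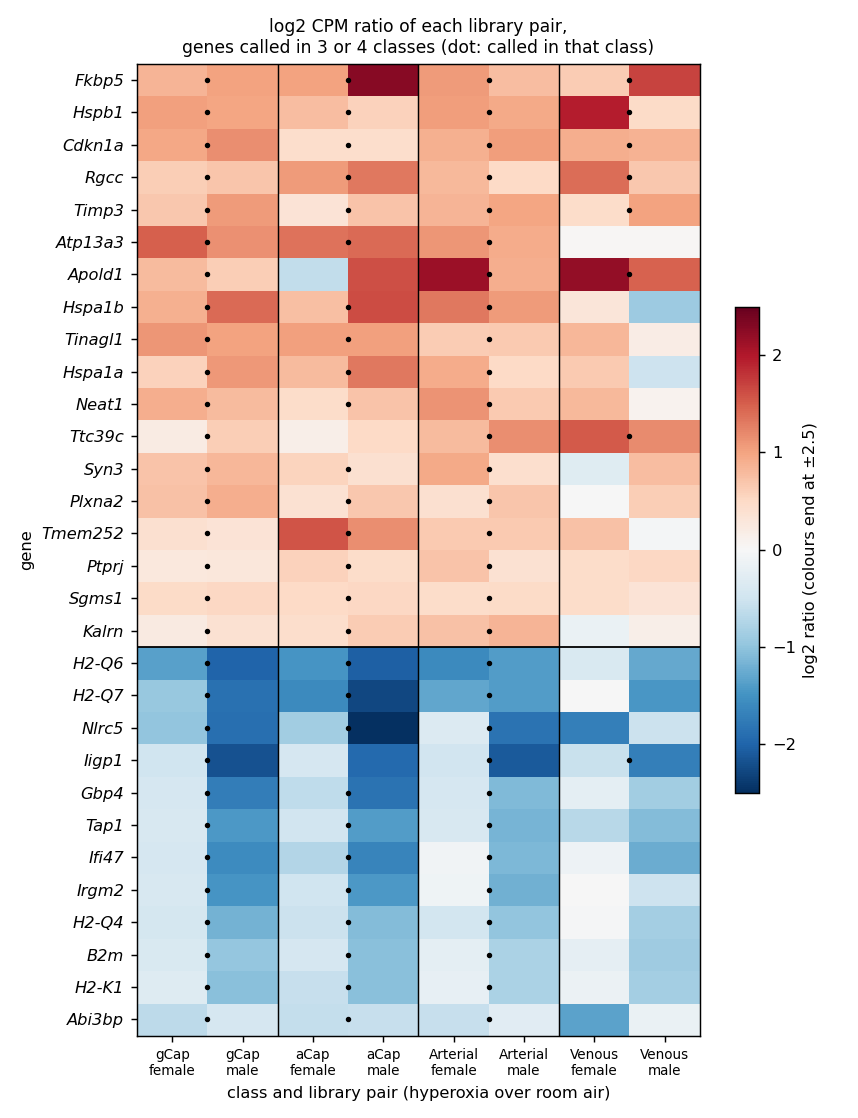
Log2 ratio of CPM, hyperoxia over room air, for the 18 genes higher and 12 lower in 3 or more classes (rows), in the female (F) and male (M) library pair of each class (columns). Red is higher and blue lower after hyperoxia, and a dot marks a class in which the gene was called.

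Both inducible Hsp70 genes were among the 13, and their pools differed by sex as well. Hspa1b had 8.43 and 2.91 CPM in room air gCap cells and 15.6 and 7.84 CPM after hyperoxia, so that the female room air pool exceeded the male hyperoxia pool and the groups overlapped. In aCap it had 77.4 and 19.3 against 131 and 59.7 CPM, and in Arterial cells 11.7 and 6.39 against 29.3 and 13.7 CPM. Within each sex the rise held, and the log2 differences with sex as a covariate were 1.10 ± 0.17, 1.13 ± 0.16 and 1.27 ± 0.26 (adjusted p = 1.89e-04, 0.0157 and 1.61e-04). Without that covariate none was called (adjusted p = 0.713, 0.989 and 0.309). With 1 library left out the differences ran from 0.44 to 2.03 in gCap, 0.30 to 2.29 in aCap and 0.58 to 1.74 in Arterial cells, lowest without female hyperoxia and highest without female room air. No call was left in any of the 3 classes without female hyperoxia or without male room air, and the Arterial call was also lost without female room air (adjusted p = 0.365). The Venous difference was -0.11 ± 0.50 and was not called. Hspa1a rose by 0.78 ± 0.16, 1.04 ± 0.12 and 0.79 ± 0.22, with 5.5 times the gCap level in mesenchymal cells. Both genes are near-identical copies, and reads may be split between them. Heat shock genes and immediate early genes also respond to the handling of cells during dissociation. Of the immediate early genes 3 of 20 were higher in gCap (Junb, Nr4a1 and Btg2) and 5 of 18 in Arterial cells (Fosb, Junb, Jund, Egr1 and Klf6), with 19 and 17 positive and medians of 0.27 and 0.30. The shares of all genes called higher in gCap and Arterial cells were 1.35% and 1.08%. In aCap none of 19 immediate early genes was called (median 0.08), and in Venous cells Dusp6 was lower among 17 (median 0.17). Of all genes 0.709% were called in aCap and 0.245% were lower in Venous cells. The part of dissociation in the heat shock values was not tested. Hspa1b is shown for its heat shock core, 104 bases before the start (250 bases, chr17:34959239-34959488, minus strand).
Hspa1b promoter: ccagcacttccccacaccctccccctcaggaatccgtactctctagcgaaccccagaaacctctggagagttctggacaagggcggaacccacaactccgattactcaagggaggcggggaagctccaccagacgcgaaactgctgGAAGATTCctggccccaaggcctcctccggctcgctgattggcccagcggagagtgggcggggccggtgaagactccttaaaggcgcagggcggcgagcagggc

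Of 19 heat shock genes, 5 rose in gCap, 3 in aCap, 4 in Arterial and 1 in Venous cells and none fell. Among all genes tested 1.35%, 0.485%, 1.08% and 0.374% were called higher in these classes. The medians of the list were 0.17, 0.19, 0.27 and 0.23, against -0.0047 to 0.0024 over all genes tested. The other members called were Hsph1 and Hsp90aa1 in gCap and Hsp90ab1 in Arterial cells. The core GAANNTTC, searched on both strands (it reads the same on each) in the 250 bases before the start, was present in 6.69% of 32851 promoters of the RefSeq table. Shared genes were counted by gene, with a match in any of their promoters. Of 14 genes higher in 3 or more classes that had an entry, 5 had it (35.7%: Hspa1a, Hspa1b, Hspb1, Ptprj and Sgms1). Of 73 genes higher in 2 or more classes 9 had it (12.3%). A gene with several promoters has more chances of a match, so shares by gene and by promoter are unlike measures. A match is a run of letters and not a bound site.

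Of 18 glucocorticoid-responsive genes tested in gCap 7 rose and none fell (Fkbp5, Tsc22d3, Zbtb16, Ddit4, Klf9, Nfkbia and Rgcc), and 17 had a positive difference, with a median of 0.32. In aCap 3 of 16 rose (Fkbp5, Ddit4 and Rgcc, median 0.29), in Arterial cells 2 of 16 (Fkbp5 and Rgcc, median 0.24) and in Venous cells 3 of 14 (Fkbp5, Errfi1 and Rgcc, median 0.36). The shares of all genes called higher were 1.35%, 0.485%, 1.08% and 0.374% in these classes, with medians of -0.0047 to 0.0024. Fkbp5 and Rgcc, already named as higher in every class, are part of each count and are the only calls in Arterial cells. This list, like the others, was chosen with earlier results of these data known, so its counts are no independent evidence. Ddit4, a stress-induced inhibitor of mTORC1, had 50.9 and 49.3 CPM in room air gCap cells and 70.3 and 80.1 CPM after hyperoxia. In aCap cells it had 23.6 and 24.6 against 38.3 and 37.5 CPM, and the groups were apart in both classes. The Arterial difference of 0.39 ± 0.12 just missed the threshold (adjusted p = 0.0503).

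Of the p53 targets 3 were higher in 2 or more classes, Cdkn1a, Phlda3 and Fas. In gCap 5 of 20 rose (Cdkn1a, Pmaip1, Phlda3, Btg2 and Fas), in Arterial cells 3 of 17 (Cdkn1a, Phlda3 and Fas), and in aCap 1 of 20 and in Venous cells 1 of 14 (Cdkn1a). Over all genes 1.35%, 1.08%, 0.485% and 0.374% were higher in these classes. The medians were 0.10, 0.17, 0.16 and 0.06. Phlda3, an inhibitor of AKT signalling, had 40.3 and 49.1 against 60.3 and 68.2 CPM in gCap (0.55 ± 0.087) and 92.0 and 95.8 against 128 and 142 CPM in Arterial cells (0.54 ± 0.12). The death receptor Fas rose by 0.28 ± 0.076 and 0.37 ± 0.10 in these classes. No cell cycle gene was called in any class, in either direction, of 24, 20, 11 and 8 tested, against 2.53%, 0.709%, 2.12% and 0.619% of all genes, a share that lists of this size cannot be told from.

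Of 17 clock genes tested in gCap 2 were higher and 4 lower, against 1.35% and 1.19% of all genes. In aCap 1 of 17 was lower and in Arterial cells 1 of 15, against 0.223% and 1.04%, and none of 11 was called in Venous cells, so that little is read from the list in these 3 classes. The repressor Nr1d1 fell in gCap (23.2 and 26.9 to 12.2 and 17.6 CPM, -0.75 ± 0.12, adjusted p = 1.73e-04, with 4.19 times that level in mesenchymal cells) and in aCap (31.7 and 42.2 to 12.4 and 26.4 CPM, -0.97 ± 0.14, adjusted p = 0.0157). Dbp, a transcription factor at the output of the clock, fell in gCap (18.5 and 23.3 to 7.43 and 12.7 CPM) and in Arterial cells (15.7 and 20.0 to 7.57 and 11.9 CPM). In gCap Nr1d2 and Tef fell too, and Arntl (0.60 ± 0.11) and Bhlhe40 rose. The hour at which each pool was taken is not given in the sources used here, so treatment and time of day cannot be told apart.

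The genes that fell in 3 classes were almost all interferon-inducible or MHC genes: H2-Q6, H2-Q7, H2-Q4, H2-K1, B2m, Tap1, Nlrc5, Gbp4, Irgm2, Ifi47 and Iigp1. The remaining gene was Abi3bp. That these lists fell was known from earlier results of these data, and they are no independent evidence of a direction. Of 14 MHC class I genes, 11 fell in gCap, 7 in aCap and 8 in Arterial cells and none in Venous cells. The shares of all genes called lower were 1.19%, 0.223%, 1.04% and 0.245%, and none of 14 cannot be told from the last. The medians of the class I list were -0.65, -0.73, -0.49 and -0.51, and no gene of it rose.

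Nlrc5, the transactivator of MHC class I genes, had 22.3 and 38.8 CPM in room air gCap cells and 11.2 and 10.4 CPM after hyperoxia (-1.43 ± 0.15, adjusted p = 3.83e-07). In aCap it had 13.2 and 30.8 against 7.24 and 5.01 CPM (-1.77 ± 0.32, adjusted p = 0.0378), and in Arterial cells 8.82 and 21.3 against 6.94 and 5.83 CPM (-1.18 ± 0.31, adjusted p = 0.00983), 4.31 times lower than in immune cells. Male room air was the highest pool in each class. Tap1, a subunit of the peptide transporter that loads class I, fell from 48.0 and 97.3 to 36.3 and 36.2 CPM in gCap, from 48.1 and 97.4 to 34.3 and 36.9 CPM in aCap and from 39.7 and 69.8 to 30.0 and 31.2 CPM in Arterial cells. Its log2 differences were -0.91 ± 0.14, -0.96 ± 0.17 and -0.80 ± 0.16. B2m, the light chain of class I, went from 1060 and 1474 to 817 and 759 CPM in gCap, from 1192.5 and 1587 to 895 and 765 CPM in aCap and from 847 and 1171 to 714 and 674 CPM in Arterial cells.

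The heavy chain H2-K1 fell by 0.67 ± 0.11 in gCap, 0.81 ± 0.11 in aCap and 0.48 ± 0.10 in Arterial cells on the log2 scale. H2-Q7, a non-classical class I molecule, fell most in aCap (60.9 and 100.01 to 20.2 and 20.6 CPM, -1.95 ± 0.14, adjusted p = 9.98e-04). In gCap it fell from 179 and 342 to 93.4 and 93.9 CPM and in Arterial cells from 80.3 and 138 to 32.5 and 52.2 CPM. The change of H2-Q7 differed between the classes (interaction, adjusted p = 0.0200), a call that was lost without female room air (adjusted p = 0.201). H2-Q6 fell by 1.67 ± 0.11, 1.78 ± 0.20 and 1.47 ± 0.23. H2-Q6, H2-Q7 and the other class I heavy chains have closely alike sequences, and their values are uncertain where reads fit more than 1 of them.

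Interferon-inducible GTPases fell in 13 of 15 tested in gCap, 2 of 15 in aCap, 8 of 14 in Arterial and 1 of 13 in Venous cells. Among all genes 1.19%, 0.223%, 1.04% and 0.245% were lower in these classes. The medians of the GTPases were -0.94, -1.12, -0.73 and -0.75. Every tested member of this list had a negative difference in each class. Iigp1 was called in Venous cells as well (104 and 261 to 71.0 and 80.0 CPM, -1.18 ± 0.22, adjusted p = 5.62e-05). Gbp4 had 52.3 and 125 against 38.9 and 37.8 CPM in gCap, 23.4 and 51.3 against 15.0 and 14.2 CPM in aCap and 45.4 and 92.8 against 34.1 and 43.4 CPM in Arterial cells. Irgm2, an immunity-related GTPase that regulates others of its family, fell in the same classes by 0.94 ± 0.14, 0.98 ± 0.18 and 0.68 ± 0.16. Guanylate-binding proteins share long stretches of sequence, and reads could be split among them. Gbp2, Gbp3, Gbp5, Gbp6 and Gbp7 fell in gCap and in Arterial cells, Gbp6 by 1.22 ± 0.23 and 1.27 ± 0.26.

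The list of interferon-stimulated genes shares Tap1, Psmb8 and Psmb9 with the MHC class I list. It had 10 of 26 members lower in gCap, 2 of 26 in aCap, 6 of 23 in Arterial and 0 of 19 in Venous cells, and none rose. Lower calls over all genes were 1.19%, 0.223%, 1.04% and 0.245%, and 0 of 19 cannot be told from the last. The medians of the list were -0.40, -0.59, -0.34 and -0.43. Isg15, a ubiquitin-like modifier, and Oasl2, a sensor-related gene, were called in gCap (-0.39 ± 0.097 and -0.41 ± 0.087) and in Arterial cells (-0.47 ± 0.12 and -0.47 ± 0.12). Ifi47 had 39.1 and 88.1 against 36.9 and 40.3 CPM in Arterial cells, where male hyperoxia lay above female room air and the groups overlapped.

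MHC class II genes fell in 7 of 9 tested in gCap and 5 of 7 in Arterial cells, in 0 of 7 in aCap and 0 of 5 in Venous cells. Of all genes 1.19%, 1.04%, 0.223% and 0.245% were lower in these classes, in that order. The 0 of 7 and 0 of 5 cannot be told from such shares. The medians of the class II list were -2.19, -1.67, -1.15 and -0.66. H2-Ab1 had 48.8 and 222 CPM in room air gCap cells and 22.5 and 24.7 CPM after hyperoxia (-2.19 ± 0.23, adjusted p = 9.03e-07). In Arterial cells it had 38.7 and 133 against 14.5 and 16.5 CPM (-2.40 ± 0.17, adjusted p = 1.15e-41). The Arterial log2 ratio was -1.41 in the female and -3.01 in the male pair, a spread that this SE does not measure. In Venous cells its groups overlapped, at 27.9 and 87.1 against 52.4 and 29.1 CPM. Ciita, the transactivator of class II genes, fell from 8.61 and 24.4 to 2.26 and 3.28 CPM in gCap (-2.47 ± 0.20) and from 5.04 and 10.2 to 2.21 and 1.52 CPM in Arterial cells (-1.99 ± 0.51), where immune cells held 5.15 times that level. The change differed between the classes for H2-Ab1, H2-Aa and H2-Eb1 (interaction, adjusted p = 1.91e-04, 0.00184 and 0.0342). Without male room air this was lost for H2-Aa (0.498) and H2-Eb1 (0.841), and without female hyperoxia for H2-Eb1 (0.115). Immune cells held 7.48 and 11.7 times the gCap and Arterial level of H2-Ab1, 11.7 and 22.5 times that of H2-Aa and 18.6 and 32.3 times that of H2-Eb1. In the immune sums H2-Ab1 itself had 940 and 546 CPM in room air against 755 and 138 CPM after hyperoxia, log2 ratios of -0.32 in the female and -1.98 in the male pair. For H2-Aa the ratios were -0.18 and -1.85 and for H2-Eb1 -0.24 and -1.94. The lineage difference was not called for these 3 genes (adjusted p = 0.803 to 0.849). The part of immune RNA in the endothelial values was not tested. Summed markers of monocytes and macrophages were between 104 and 130 CPM in gCap, and 1 of the 11 markers was called there, Plac8, lower. In Arterial cells their sum was between 248 and 281 CPM. Summed B cell markers were between 53.1 and 85.8 CPM in gCap and between 125 and 170 CPM in Arterial cells. Of these Ebf1 was called in gCap, higher. Dendritic cell markers were not checked.

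**Figure D4:**
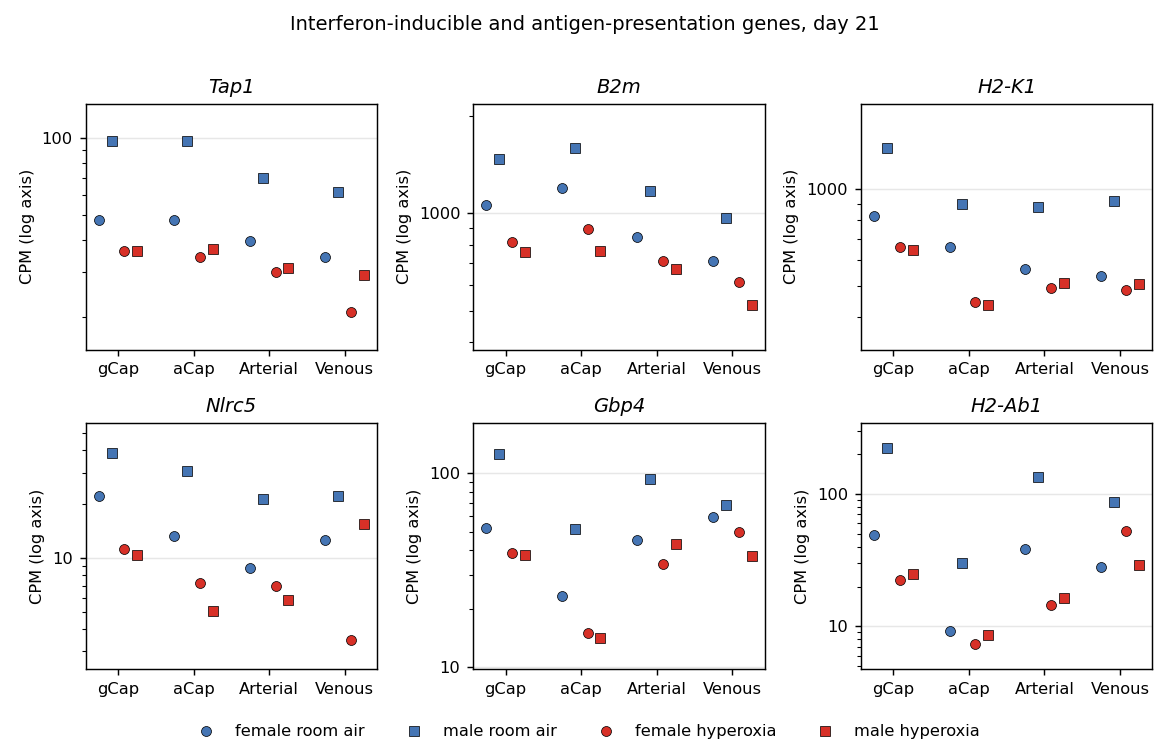
Level in CPM (y axis) of Tap1, B2m, H2-K1, Nlrc5, Gbp4 and H2-Ab1 for each library and class (x axis), 1 point per library. Male room air is the highest pool for most genes and classes, as for H2-Ab1 in gCap, where it stands at 222 CPM and the female room air pool at 48.8 CPM.

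These falls were larger in the male pair than in the female pair for each of the 11 interferon and MHC genes in gCap. The 2 hyperoxia pools were close to each other there, and male room air lay above female room air. For Tap1 in gCap the log2 ratio was -0.41 in the female pair and -1.43 in the male pair, and for Iigp1 -0.50 and -2.17. Without male room air the fitted gCap change was -0.39 for Tap1 (adjusted p = 0.0499), -0.43 for Gbp4 (0.0179), -0.41 for B2m (0.0225), -0.52 for Iigp1 (6.76e-05) and -1.03 for H2-Ab1 (6.94e-08). In Arterial cells it was -0.36 for Tap1 (0.520), -0.20 for Gbp4 (0.735), -0.27 for B2m (0.426) and -1.30 for H2-Ab1 (0.0663), none of them called. Of the 12 genes lower in 3 or more classes 1 was still lower in 3 without male room air, 3 without female hyperoxia, 4 without male hyperoxia and 9 without female room air. DESeq2 called 4 genes lower in 2 or more classes and none in 3.

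The interferon response core GAAANNGAA, on either strand of the 250 bases before the start, was present in 7.13% of all promoters of the table. Counted by gene, with a match in any promoter, it was present for 14 of 56 genes lower in 2 or more classes (25.0%). Of those higher, 7 of 73 had it (9.59%). These shares by gene are not the same measure as the share of promoters. The promoters of B2m (chr2:122147437-122147686, plus strand) and Gbp2 (chr3:142620413-142620662, plus strand, 61 bases from the start of the GENCODE gene) are shown as an MHC and a GTPase gene with the core. The match is in capitals, for Gbp2 as it reads on the opposite strand, and starts 139 and 58 bases before the start.
B2m promoter: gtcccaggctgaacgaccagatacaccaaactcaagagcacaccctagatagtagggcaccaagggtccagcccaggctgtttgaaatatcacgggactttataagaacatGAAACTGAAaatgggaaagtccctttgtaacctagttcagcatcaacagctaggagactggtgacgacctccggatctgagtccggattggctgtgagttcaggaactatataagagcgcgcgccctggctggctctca
Gbp2 promoter: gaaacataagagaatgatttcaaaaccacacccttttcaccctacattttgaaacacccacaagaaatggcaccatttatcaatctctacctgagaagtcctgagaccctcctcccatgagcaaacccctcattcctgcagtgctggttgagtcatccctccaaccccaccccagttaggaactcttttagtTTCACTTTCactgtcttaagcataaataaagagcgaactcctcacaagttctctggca

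Abi3bp, an extracellular matrix protein that binds collagen, fell without being interferon-inducible. It had 169 and 152 against 108 and 113 CPM in gCap (-0.52 ± 0.078, adjusted p = 1.43e-04), 407 and 411 against 268 and 276 CPM in aCap (-0.58 ± 0.075, adjusted p = 0.00991) and 620 and 517 against 417 and 427 CPM in Arterial cells (-0.41 ± 0.10, adjusted p = 0.00629). Here the room air pools of the sexes were close to each other. DESeq2 called it in gCap (adjusted p = 0.00326) and aCap (6.98e-06) and not in Arterial cells (0.631).

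Of the matrix genes tested in gCap 7 of 45 rose and 1 fell (Fbln2), in aCap 4 of 42 rose, in Venous cells 1 of 34 rose, and in Arterial cells 3 of 41 rose and 1 fell (Mgp). Over all genes 1.35%, 0.485%, 0.374% and 1.08% were higher in these classes, in that order. The medians were 0.20, 0.35, 0.24 and 0.02. Summed mesenchymal markers went from 103 and 86.2 to 136 and 126 CPM in gCap, where 1 of the 11 was called, Mfap4, higher. In aCap they went from 53.5 and 46.4 to 59.0 and 64.0 CPM, with none called. Their part in the matrix values was not tested. Igfbp7, a secreted binding protein of vessels, rose in gCap (594 and 548 to 875 and 1032 CPM) and in Arterial cells (1054 and 1074 to 1307 and 1605 CPM). In aCap, where it was highest, it stayed between 4874 and 5693 CPM. Elastin (Eln) and Sparcl1 were called higher in gCap and aCap, Eln by 0.51 ± 0.092 and 0.93 ± 0.15, with 8.79 times the gCap level of Eln in mesenchymal cells. In aCap mesenchymal cells held 41.8 times the level of Eln and 26.2 times that of Sparcl1, and without predicted doublets the aCap differences were 0.60 and 0.55.

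Of 31 angiogenic receptors and ligands tested in gCap 4 rose (Nrp2, Unc5b, Plxna2 and Plxna4) and 3 fell (Angpt2, Vegfc and Esm1), with a median of 0.03, against 1.35% higher and 1.19% lower over all genes. In Arterial cells 1 of 30 rose (Plxna2) and 4 fell (Aplnr, Vegfc, Esm1 and Cxcr4), with a median of -0.04, against 1.08% and 1.04%. In aCap 3 of 31 rose (Plxna2, Sema3g and Adgrl4) and none fell, with a median of 0.14, against 0.485% and 0.223%, and in Venous cells none of 24 was called. The tip cell proteoglycan Esm1 had 41.6 and 50.4 against 25.2 and 32.4 CPM in gCap (-0.66 ± 0.091) and 111 and 147 against 60.2 and 83.2 CPM in Arterial cells (-0.83 ± 0.12). Vegfc, the ligand of VEGFR-3, fell by 0.39 ± 0.083 and 0.90 ± 0.22. In aCap the differences of Esm1 and Vegfc were 1.11 ± 0.39 and 0.47 ± 0.19, at no more than 3.33 and 12.5 CPM, and were not called. In Venous cells, where the level of Vegfc was highest, Vegfc had 1292 and 1174 against 941 and 875 CPM, a difference that did not pass the test (adjusted p = 0.652). Esm1 was not tested in Venous cells. Bmp4 and its target Id2 fell in gCap (-0.54 ± 0.11 and -0.62 ± 0.087) and in Arterial cells (-0.85 ± 0.14 and -0.61 ± 0.12), with 5.02 times the gCap level of Id2 in immune cells.

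Csf1, which sustains macrophages, fell in gCap (41.4 and 46.9 to 26.5 and 26.9 CPM, -0.71 ± 0.094) and in aCap (31.0 and 30.9 to 18.5 and 14.1 CPM, -0.93 ± 0.12). Plaur, the urokinase receptor, rose in gCap (0.47 ± 0.091, 5.41 times that level in immune cells) and in Arterial cells (0.73 ± 0.12). Of the flow-responsive genes Klf4 rose in gCap and in Arterial cells (0.35 ± 0.088 and 0.36 ± 0.10). Its female hyperoxia pool, with 807 and 883 CPM in these classes, stood above the other 3, and the groups overlapped. Ccn2, a matricellular target of YAP, fell in Arterial and in Venous cells (219 and 425 to 180 and 171 CPM in Venous, -0.80 ± 0.20, adjusted p = 0.0171), with 19.8 times its Arterial level in mesenchymal cells.

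No gene of several stress lists was called in 2 or more classes, where over all genes 0.689% were higher and 0.596% lower, a share that lists of this size cannot be told from. Of the NRF2 and oxidative stress genes 1 was called, Gpx3 in gCap (0.39 ± 0.10, adjusted p = 0.0429), of 19, 18, 15 and 13 tested. Positive differences were found for 14, 13, 11 and 9 of them, with medians of 0.07, 0.07, 0.09 and 0.12. Over all genes 2.53%, 0.709%, 2.12% and 0.619% were called in gCap, aCap, Arterial and Venous cells. In gCap 1.35% were higher, so that little is read from single calls. Of the hypoxia-responsive genes Ndrg1 was called higher in gCap (18 tested) and Ankrd37 lower in aCap (18 tested, 0.223% of all genes lower). No gene of the unfolded protein and amino acid response was called in any class, of 19, 19, 19 and 16 tested (medians 0.09, 0.03, 0.07 and 0.01). Of 16 Notch pathway genes tested in aCap Hey1 was called higher, against 0.485% of all genes, and none was called in the other classes. At an unadjusted p under 0.05, edgeR passed 1563, 1013, 1097 and 587 genes in gCap, aCap, Arterial and Venous cells, over all genes tested.

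Of the genes with the largest changes within a class, some were called in that class alone and others, such as Slc15a2, H2-Ab1 and Spon1, in more. In gCap Slc15a2, a peptide transporter, rose from 2.41 and 2.99 to 8.63 and 10.1 CPM (1.81 ± 0.20), and it rose in Arterial cells too (0.945 and 3.83 to 9.15 and 7.86 CPM). Its epithelial level was 13.5 and 14.9 times higher. Mal and Ryr2 rose in gCap (1.73 ± 0.28 and 1.59 ± 0.28), with 23 times the level of Mal in epithelial and 5.99 times that of Ryr2 in mesenchymal cells. The gCap genes with the largest falls were H2-DMb1 (-2.69 ± 0.26, 8 times that level in immune cells), H2-Aa (-2.49 ± 0.28) and Ciita. In aCap Inhba, a subunit of activin, rose from 3.51 and 3.32 to 15.1 and 14.0 CPM (2.09 ± 0.19, adjusted p = 0.00182). In the other classes Inhba was at most at 1.28 CPM. Nrn1 went in aCap from 0 and 1 UMIs to 21 and 33 UMIs, and Kirrel3 from 17 and 4 to 66 and 44 UMIs. Epithelial cells held 31.3 times the aCap level of Nrn1, and mesenchymal cells 10.3 times that of Kirrel3.

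Slc6a2, the noradrenaline transporter and a marker of the veins, fell in Arterial cells from 10.7 and 30.2 to 0.631 and 1.27 CPM (-4.37 ± 0.43, adjusted p = 1.15e-20). In 1 of these libraries a single cell held 97.1% of its Arterial UMIs, and in Venous cells it had 2356 and 1782 against 1924.5 and 1925.5 CPM. Zbtb7c rose in gCap (5.06 and 4.36 to 10.3 and 11.1 CPM) and in Arterial cells (5.04 and 2.13 to 17.0 and 13.2 CPM). Gpc6 rose (2.83 ± 0.57) and Frmd5 fell (-1.79 ± 0.30) in Arterial cells, with up to 63.8% of a library's Frmd5 UMIs and 100% of its Gpc6 UMIs in 1 cell, and with 18.4 times the level of Gpc6 in mesenchymal cells. Venous cells showed falls of Robo2 (65.9 and 95.7 to 20.9 and 26.4 CPM), Spon1 (63.4 and 80.3 to 39.6 and 16.4 CPM) and Fut8 (69.7 and 49.5 to 16.3 and 29.1 CPM), with 5.83 and 6.97 times the level of Robo2 and Spon1 in mesenchymal cells.

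Neutrophil transcripts moved with hyperoxia in Venous and Arterial cells. S100a8 and S100a9, which neutrophils hold in large amounts, had 21.5 and 23.9 against 275 and 428 CPM and 43.1 and 39.3 against 400.3 and 876 CPM in Venous cells. The Venous sum of 8 neutrophil markers was 82.4 and 73.5 CPM in room air and 738 and 1479 CPM after hyperoxia. Of the 8 markers 4 were called higher, against 0.374% of all genes, and 1 cell held up to 97.9% of a library's S100a8 UMIs. Without predicted doublets the Venous log2 differences were -0.64 for S100a8 and -0.34 for S100a9, and in Arterial cells -0.90 and -0.40 instead of 1.03 and 1.22. Retnlg, another neutrophil gene, rose in Arterial cells (2.37 ± 0.34), and its difference was 0.44 without predicted doublets (adjusted p = 0.898). Mir142hg, a blood cell transcript, rose in Venous cells with 76.7% of 1 library's UMIs in 1 cell. Immune cells held 24.7 to 40.2 times the Venous level of S100a8, S100a9 and Mir142hg, and 108 to 123 times the Arterial level of S100a8, S100a9 and Retnlg. These 4 genes are counted among the calls above, as are Csf3r and Cxcr2, the other neutrophil markers called in Venous cells. Summed B cell markers in Venous cells were 46.9 and 29.0 CPM in room air and 239 and 118 CPM after hyperoxia. Of that list Ebf1 was called higher there. Venous cells had 32 higher and 21 lower calls with all cells, and 20 and 29 without predicted doublets.

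Whether the classes differed was tested over the 16 sums of library and class. The change differed between the classes for 121 of 13759 genes (0.879%). Among the genes higher in 2 or more classes it differed for 21 of 89, and among those lower for 12 of 77. These genes were chosen by their calls in the same sums, which favours a difference. Their counts are therefore not comparable with the share over all genes. For most of the 121 genes it was aCap that lay farthest from the median of the classes (72 genes, of which 56 were more positive in aCap). Venous cells lay farthest for 30, Arterial for 11 and gCap for 8.

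The aCap differences moved with the predicted doublets. Without them 61 of the 121 genes were still called, and of the 56 genes more positive in aCap 13 were. The median aCap change of those 56 fell from 0.72 to 0.27. The 6 genes with the smallest p were Adgrl4, Ptprb, Cemip2, Cd93, Cxcl12 and Crim1, all of them at higher levels in gCap and Arterial cells than in aCap. Ptprb, the phosphatase that restrains the angiopoietin receptor TIE2, had 183 and 162 against 270 and 246 CPM in aCap (0.59 ± 0.080) and 2393 to 2893 CPM over all 4 gCap sums. Without predicted doublets its aCap difference was 0.09 and the interaction was not called (adjusted p = 0.442). The chemokine Cxcl12 went from 0.82 to 0.25 in aCap in the same way, Cemip2 from 0.67 to 0.03, Cd93 from 0.63 to 0.11 and Crim1 (28.1 times its aCap level in mesenchymal cells) from 0.81 to 0.37. The part of doublets in these values was not tested further. Adgrl4, an adhesion receptor of the endothelium, kept 0.56 of 0.77, and its interaction was called (adjusted p = 2.98e-04). Of the gCap identity genes 5 of 15 were called higher in aCap, of the arterial identity genes 6 of 16 and of the venous identity genes 4 of 13. The share of all genes called higher in aCap was 0.485%. The medians of the lists in aCap were 0.43, 0.62 and 0.67. Predicted doublets are in these counts, and the lists were not counted again without them. Their members include Ptprb, Cd93 and Cxcl12, whose aCap differences shrank above. With an equal number of cells in all 16 sums, 54, the interaction was called for 4 genes.

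**Figure D5:**
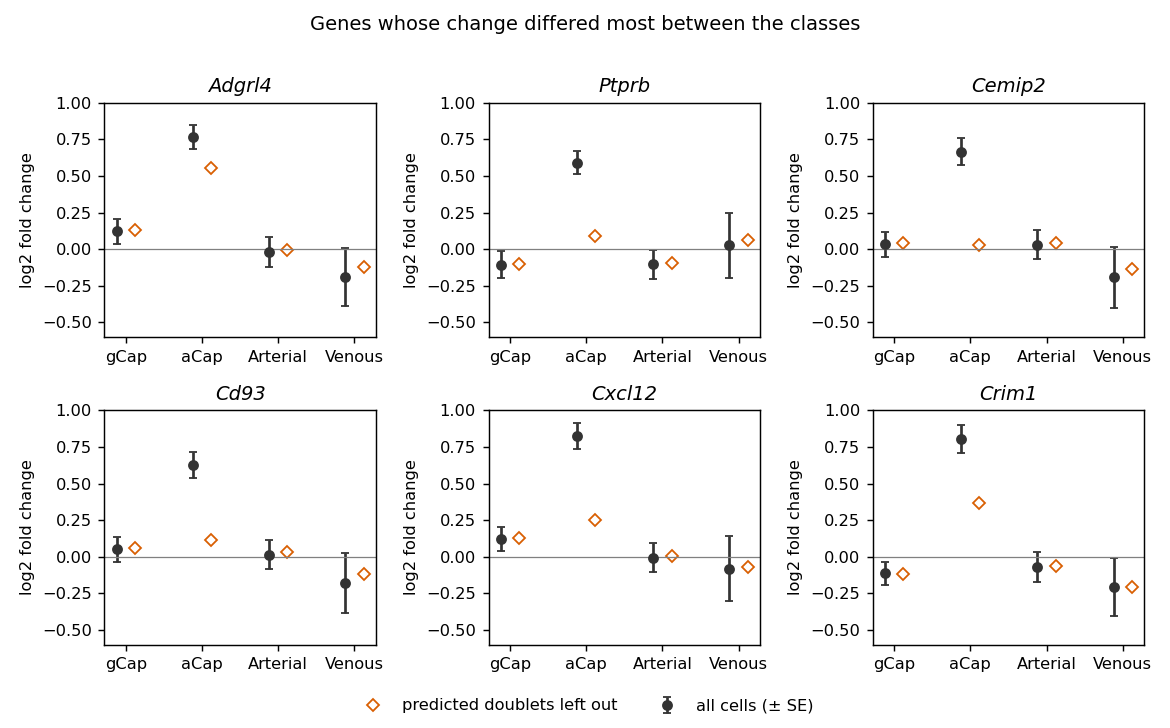
Log2 difference after hyperoxia (y axis) of Adgrl4, Ptprb, Cemip2, Cd93, Cxcl12 and Crim1 in each class (x axis), with all cells (filled, bars are SE) and with predicted doublets left out (open, no bars). The aCap difference of Cemip2 goes from 0.67 to 0.03 without doublets, and that of Adgrl4 from 0.77 to 0.56.

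The 4 classes were last summed to 1 endothelial lineage and set against the 17046 immune cells of the same libraries. The change differed between the lineages for 285 of 17632 genes (1.62%), of which 15 were more positive (0.0851%) and 270 more negative (1.53%) in the endothelium. A more negative value can also come from a rise in the immune sums. Ptprb went there from 19.0 and 17.8 to 51.3 and 73.7 CPM, and its median endothelial change was -0.04. Without predicted doublets 120 genes differed. What endothelial RNA adds to the immune sums was not tested. The 12 genes lower in 3 or more endothelial classes were chosen for their fall in sums of these same endothelial cells, which favours the negative sign. Of them 7 were more negative there than in immune cells: Gbp4, Nlrc5, Ifi47, H2-Q4, H2-Q6, H2-Q7 and Iigp1 (adjusted p = 0.0306 to 0.0495). Without predicted doublets H2-Q4 was no longer called (adjusted p = 0.0536). For Nlrc5 the immune sums had 33.8 and 55.4 CPM in room air and 55.2 and 40.3 CPM after hyperoxia, higher in the female pair and lower in the male pair. The difference between the lineages was -1.54 on the log2 scale. For the 5 genes higher in all 4 classes the lineage difference was not called (adjusted p = 0.0816 for Timp3 to 0.434 for Rgcc). That of Timp3 was -1.28, and it was called in 1 of 6 alternatives, without female hyperoxia (adjusted p = 0.0220). In immune cells Hspb1 had log2 ratios of 1.29 and 1.85 in the female and male pair, at no more than 5.56 CPM, and Cdkn1a -0.27 and 0.42. Of the 18 genes higher in 3 or more classes 4 differed between the lineages. The change was more positive in the endothelium for Atp13a3 (difference 1.32, adjusted p = 0.0478) and more positive in immune cells for Plxna2 (-1.48, 0.0306), Tmem252 (-2.17, 0.0306) and Kalrn (-1.08, 0.0332). These 3 genes were at no more than 10.8 CPM in the immune sums, and without predicted doublets they were no longer called (adjusted p = 0.0689 to 0.178). No lineage difference was called without female room air or without male room air, while calls remained without either hyperoxia library. Each of these fits kept only 1 pool of 1 treatment. Why the calls were lost without a room air pool was not tested.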

How the data were processed

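The authors made UMI counts for each gene and barcode of 10x 3' libraries with Cell Ranger, and deposited them as whole numbers. The matrix headers name version 7.0.1, and the submitters' processing notes name Cell Ranger 6.0.0, Seurat 4.1.1 and mm10. Whether intronic reads were counted is not given in the sources used here. Cell classes came from the authors' deposited annotation, and every cell with a class was kept. Doublets were predicted per library with Scrublet (scanpy 1.11.5) for an alternative only. Counts were summed per library and class and scaled to CPM within each sum. Each class was fitted with edgeR 4.0.16 (R 4.3.3; filterByExpr, TMM, quasi-likelihood F-test, sex and hyperoxia as terms), with Benjamini-Hochberg adjustment over all genes tested in the class and a threshold of 0.05. Sex paired the libraries, since each sex had 1 pool per treatment. The differences between classes and between endothelial and immune sums were tested as interactions with library as a term. The class, interaction and lineage fits were tested on simulated counts, the alternatives were not.

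Genes were named by rule: those called with 1 sign in 3 or more classes and the 3 largest called changes per class and direction (both with 1 sign in the library pairs and 20 or more UMIs in each library of the group with the higher level), the 6 smallest interaction p-values, and list members called in 2 or more classes (92 genes in all). Predicted, ribosomal, mitochondrial, haemoglobin, immunoglobulin and sex-linked genes were counted but not named. Others named were chosen after their values were seen. A level 4 or more times higher in another lineage is given beside the gene. The members and all gene lists were chosen with earlier results of these data known. Alternatives were DESeq2 1.42.0, other scalings and filters, a joint fit, equal cell numbers, doublets or female hyperoxia cells without Xist left out, no sex term, and each library left out (then without the sex term). Of 32285 genes in the files, 32158 had a GENCODE M21 identifier. Promoters came from RefSeq (GRCm38.p6). Totals per class and library limit the precision, and p-values cover these pools only.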

Additional observations from a re-analysis of the deposited data

Results flagged for a closer look

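The change after hyperoxia differed between the 4 classes, by the interaction test of edgeR, for these genes the report names. The adjusted p was 1.94e-04 for Cdkn1a, 0.0178 for Timp3, 0.00400 for Kalrn and 0.0200 for H2-Q7. Among MHC class II genes it was 1.91e-04 for H2-Ab1, 0.00184 for H2-Aa and 0.0342 for H2-Eb1. It was 9.76e-04 for Slc6a2, 0.0130 for S100a9 and 0.0385 for Spon1. It was 5.34e-06 for Adgrl4, 1.36e-05 for Ptprb and Cemip2, and 3.68e-05 for Cd93, Cxcl12 and Crim1.

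The same test gave an adjusted p of 0.0312 for Plaur, 0.00184 for Ltbp4, 0.00714 for Sparcl1, 0.0130 for Eln, 0.00726 for Igfbp7 and 0.0131 for Fabp4. It gave 0.00529 for Slc6a6, 0.0444 for Junb, 0.0159 for Glp1r and Car4, 0.0181 for Ptp4a3 and 0.0169 for Mecom. Without predicted doublets the difference between the classes was not called for Timp3 (0.0526), Ptprb (0.442), Cemip2 (0.919), Cd93 (0.891), Cxcl12 (0.661) and Crim1 (0.119), nor for Sparcl1 (0.321), Eln (0.241), Glp1r (0.553), Ptp4a3 (0.0513) and Mecom (0.503). With each library left out in turn the difference between the classes stayed called for Cdkn1a, H2-Ab1, Slc6a2, Adgrl4, Ptprb, Cemip2, Cd93, Cxcl12, Crim1, Ltbp4 and Fabp4. For the other genes named here it was lost without at least 1 library, with a largest adjusted p from 0.102 (Kalrn) to 0.841 (H2-Eb1).

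The change differed between endothelial and immune sums, by edgeR's interaction test. It was more positive in the endothelium for Atp13a3 (adjusted p = 0.0478). For the other genes it was more negative in the endothelium. The adjusted p was 0.0332 for Kalrn and Ptprb, and 0.0306 for Plxna2, Tmem252, H2-Q7, Nlrc5, Gbp4, Gbp6 and Slc6a2. It was 0.0312 for H2-Q6, 0.0495 for Iigp1, 0.0327 for Ifi47 and 0.0397 for H2-Q4. It was 0.0323 for Adgrl4 and Glp1r, and 0.0447 for Sparcl1. In the immune sums Kalrn, Ptprb, Plxna2, Tmem252, Slc6a2, Adgrl4, Glp1r and Sparcl1 were higher after hyperoxia in both pairs. Adgrl4 went there from 6.70 and 6.49 to 21.9 and 31.6 CPM, and its median endothelial change was 0.05. Slc6a2 was at most at 1.87 CPM there. The interferon and MHC genes named here were higher in the female and lower in the male immune pair. Without predicted doublets the lineage difference was not called for Plxna2 (0.0689), Tmem252 (0.122), Kalrn (0.178), H2-Q4 (0.0536), Slc6a2 (0.350) and Sparcl1 (0.146). None of these lineage differences was called without either room air library.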

How the results depend on the processing

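Counts are given for gCap, aCap, Arterial and Venous cells and then for 2 or more, 3 or more and all 4 classes, where they moved by over 1.5 times. DESeq2 called 82, 37, 11 and 2 genes and 21, 5 and 0 shared. Without the pairing by sex (no replicate block) 18, 8, 24 and 8 genes were called and 11, 1 and 0 shared. The joint fit gave 85 in gCap, 26 in Arterial and 9 in Venous cells, and 35, 5 and 1 shared. Without predicted doublets gCap had 553 and aCap 306 calls, and 258, 70 and 8 were shared. Without the Xist-free cells Venous had 11 calls and 0 genes were shared by all 4. Equal cell numbers gave 110 genes in 2 or more classes. Without a filter aCap had 346, Venous 85 and 3 or more classes 55, and upper-quartile scaling gave 153 in aCap. The class interaction was called for 4 genes with equal cells and 400 without a filter, and the lineage interaction for 120 without doublets. With each library left out in turn the counts ran from 125 to 710, 82 to 541, 11 to 69 and 34 to 53 by class. Shared genes ran from 57 to 251, 12 to 34 and 1 to 9, the class interaction from 56 to 181 and the lineage interaction from 0 to 463. The log2 difference turned without doublets for S100a8 (-0.57 gCap, -0.90 Arterial, -0.64 Venous) and S100a9 (-0.46, -0.40, -0.34). Over the libraries left out in turn it ran from -1.16 to 0.0022 for Ifi47 in Arterial cells (positive without male room air). In aCap it ran from -0.82 (without male room air) to 1.71 for Mir142hg, from -2.42 to 2.26 for S100a8 (0.98 without female hyperoxia) and from -2.01 to 1.76 for S100a9 (both highest without female room air). Other causes were not tested. Of the 89 higher and 77 lower shared genes, 17 and 4 remained with DESeq2, 84 and 77 without doublets and 26 and 24 without male room air.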
